A study of Mus musculus with 4 samples.

Results

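CD8 T cells of the submandibular gland, a salivary gland below the jaw, were studied in mice by single-cell RNA sequencing of 4 libraries enriched for non-epithelial cells. They were chosen by their raw UMI counts (unique molecular identifiers, each standing for 1 captured RNA molecule). A cell had to hold at least 300 genes and at most 10% mitochondrial UMIs. It also needed at least 2 UMIs over the T cell receptor complex genes Cd3e, Cd3d, Cd3g and Trac and at least 1 UMI of the coreceptor genes Cd8a and Cd8b1. Cells with a UMI of Cd4, of Ncr1 (a natural killer cell receptor) or of Cd79a (a B cell receptor subunit), or with more than 1 UMI of the endothelial genes Pecam1 and Cdh5, were left out. Of 36685 retained cells, 465 met this rule: 206 and 160 in deligated libraries 1 and 2, and 51 and 48 in homeostatic libraries 1 and 2.

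CD8 T cells read peptides presented on MHC class I molecules and can kill infected or damaged cells with granzymes and perforin. Their coreceptor is a pair of chains, most often one CD8 alpha and one CD8 beta chain, and some tissue T cells carry CD8 alpha alone. Circulating CD8 T cells leave tissues along a sphingosine-1-phosphate gradient read by S1PR1, whose gene the factor KLF2 switches on. Resident memory CD8 T cells, which stay in epithelial organs such as salivary glands, oppose this exit with CD69 and hold on to their surroundings with integrins such as CD103, the product of Itgae.

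All libraries came from female C57BL6/J mice, and no transgene or deletion is named. In the deligated group the main ducts had been clipped shut for 14 days, the clip was then taken off, and glands were harvested 5 days later at an age of 14 weeks. The homeostatic group had no surgery and was 12 weeks old, so age and surgery cannot be told apart. Beads against EpCAM and Ter119 had removed epithelial and red blood cells, followed by removal of dead cells, so that shares of cells refer to the depleted suspension. The protocols speak of 2 glands and name sublingual beside submandibular glands, and they do not say how many animals gave a library. The p-values below therefore measure the spread between libraries, which may be technical.

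CD8 T cells had similar depth in the 4 libraries, with medians of 4845 to 5366 UMIs and 1610.5 to 2020 genes per cell and of 2.42% to 2.93% mitochondrial UMIs. Their summed UMIs were 1108162 and 877910 in the deligated and 309409 and 265922 in the homeostatic libraries. No cell barcode of a CD8 T cell was shared between libraries. A doublet caller run in each library marked 7 of the 465 cells. The counting software differed between the groups: the file headers name Cell Ranger 6.0.1 for the deligated and 7.0.0 for the homeostatic libraries, which cannot be told apart from the surgery.

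The genes of the rule describe how clear the choice was and are not findings. The sum over the receptor complex genes had medians of 20, 22, 19 and 22 UMIs in deligated 1 and 2 and homeostatic 1 and 2, and the lowest sum in a chosen cell was 3 UMIs, so none lay at the limit of 2. Just outside it, 0, 1, 1 and 1 cells with Cd8a or Cd8b1 had a sum of 1 UMI. The coreceptor sum was at its limit of 1 UMI in 13, 18, 2 and 9 of the chosen cells. Cells with both Cd4 and coreceptor UMIs, which the rule leaves out, numbered 6, 1, 0 and 0, and cells left out for Ncr1 numbered 17, 41, 16 and 10.

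CD8 T cells made up a larger part of the deligated than of the homeostatic libraries. They were 4.56% (95% exact Clopper-Pearson interval 3.97% to 5.21%) and 1.91% (1.63% to 2.22%) of retained cells after deligation. In the homeostatic libraries they were 0.435% (0.324% to 0.572%) and 0.398% (0.293% to 0.527%). Both deligated libraries lay above both homeostatic libraries, and deligated 1 lay well above deligated 2, beyond counting error. The group means were 3.23% ± 1.87 and 0.417% ± 0.0266 (SD, n = 2 libraries each), a ratio of 7.76. In edgeR's quasi-likelihood test on the numbers of cells in 11 classes, the log2 ratio was 2.94 (SE 0.574, adjusted p = 0.0222). With a replicate block, which takes equal library numbers as pairs, it missed the threshold (2.829, adjusted p = 0.0622). Leaving out a library here and below leaves 1 in its group, which is assumed to vary like the other group. The share missed the threshold without homeostatic 1 (3.01, adjusted p = 0.0903) and without homeostatic 2 (2.88, adjusted p = 0.0922).

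Other T cells and NK cells were also a larger part of the deligated libraries, so the rise of CD8 T cells was not shown to be their own. CD4 T cells, chosen by the same rule with the coreceptors exchanged, were 0.907% and 0.489% against 0.128% and 0.157% of cells (log2 ratio 2.25, adjusted p = 0.0222). T cells with neither or both coreceptors rose by a log2 ratio of 2.82 (adjusted p = 7.27e-04) and NK cells (natural killer cells) by 1.27 (adjusted p = 0.00283). B cells, at 1.31% and 0.203% against 0.171% and 0.157%, did not pass (2.11, adjusted p = 0.161). Fibroblasts and mural cells rose by 1.94 and 1.51 (both adjusted p = 7.27e-04). Cells with UMIs of Krt8, Krt18 and Epcam, which mark epithelium, fell from 8.27% and 8.36% to 0.487% and 0.608%, and macrophages from 11.3% and 11.1% to 0.995% and 1.61%, which changes the total against which every share is taken. Of T cells alone, CD8 T cells were 38.1% and 23.8% after deligation and 30.9% and 28.1% without surgery. The deligated libraries lay on either side of the homeostatic pair, and the log2 ratio was 0.065 (adjusted p = 0.865). Of T, NK and B cells together they were 17.5% and 8.49% against 5.94% and 5.67%, a log2 ratio of 1.16 that missed the threshold (adjusted p = 0.155). For each CD4 T cell there were 5.02 and 3.90 CD8 T cells in the deligated and 3.40 and 2.53 in the homeostatic libraries.

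**Figure D1:**
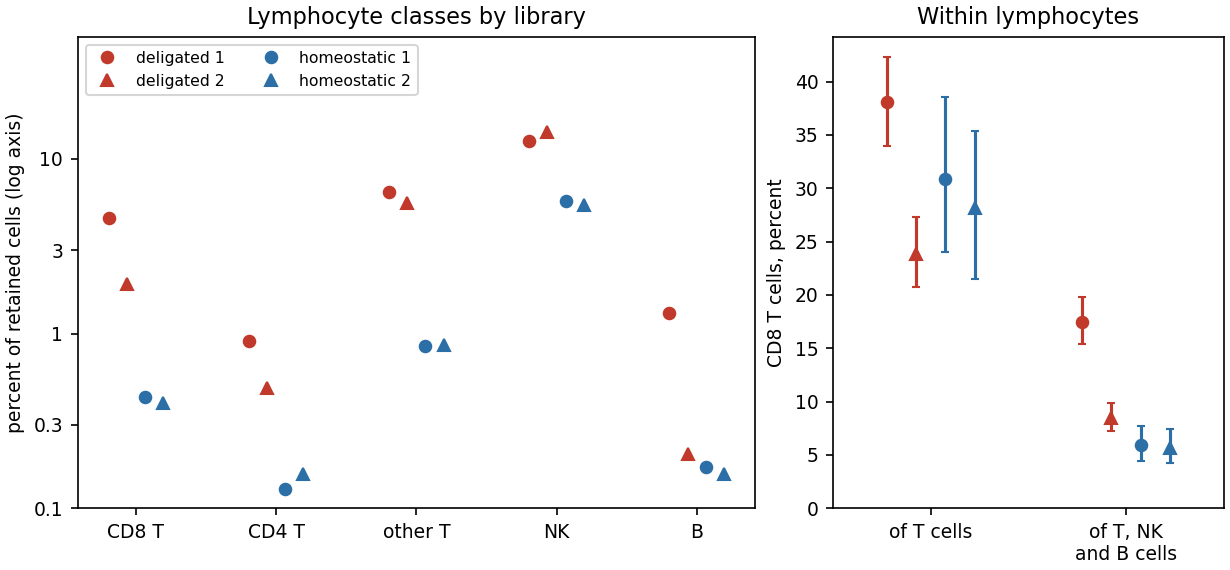
Left, percent of retained cells (log axis) in each lymphocyte class and library, with red for deligated and blue for homeostatic libraries. Right, CD8 T cells as percent of T cells and of all lymphocytes, with exact 95% intervals as bars. CD8 T cells sit at 4.56% and 1.91% in the deligated and at 0.435% and 0.398% in the homeostatic libraries, while their share of T cells overlaps between the groups.

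Cd8a and Cd8b1 are genes of the rule, and their shares only describe the chosen cells. Both were detected in 83.0% and 68.8% of the cells in the deligated and in 80.4% and 62.5% in the homeostatic libraries. Cd8a without Cd8b1 was seen in 63 of the 465 cells (13.5%), at 6.31%, 20.6%, 13.7% and 20.8% in deligated 1, deligated 2, homeostatic 1 and homeostatic 2. These 63 cells, 33 of them from deligated 2, are set beside the 402 cells with Cd8b1 as a description over pooled cells. Their shares are at full depth, with medians of 5451 and 4921.5 UMIs. The integrin gene Itgae was detected in 73.0% of them against 20.6%, Gzmb (granzyme B) in 65.1% against 21.9%, and Xcl1, a chemokine that attracts dendritic cells, in 93.7% against 54.2%. Fcer1g, a signalling adaptor best known from NK and innate-like T cells, was detected in 84.1% against 13.9%. Klra7, an inhibitory receptor of the Ly49 family, was found in 50.8% against 2.24%, and the NK receptor gene Klrb1c in 47.6% against 2.99%.

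Other genes ran the opposite way in the cells without Cd8b1. Gzmk (granzyme K) was detected in 11.1% of them against 36.8% of the cells with Cd8b1. Ly6a, the Sca-1 surface protein, was detected in 14.3% against 60.4%, Cd5, a dampener of receptor signals, in 6.35% against 26.4%, and the costimulatory receptor Cd28 in 20.6% against 50.2%. The direction was the same in each library for Itgae, Gzmb, Xcl1, Fcer1g, Klra7, Klrb1c, Ly6a, Cd5 and Cd28. For Gzmk it was not: in homeostatic 2 it was detected in 30.0% of the cells without Cd8b1 and 23.7% of those with it. Fcer1g, for instance, was detected in 69.2%, 93.9%, 85.7% and 70.0% of the cells without Cd8b1 against 6.74%, 28.3%, 9.09% and 7.89% of those with it, in the order above.

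Free RNA also gives UMIs to cells that do not make a transcript, so the same shares were taken in endothelial cells, with medians of 6206, 4882, 3852 and 3848 UMIs in the same order. Fcer1g was detected in 12.3%, 24.2%, 13.0% and 11.9% of them. Its share in the CD8 T cells with Cd8b1 lay below this in all but deligated 2 and is read as background there. Klra7 and Klrb1c, at 3.59% to 8.08% and 4.51% to 9.60% of endothelial cells, were at or below that level in the CD8 T cells with Cd8b1 of all but homeostatic 2. Gzmb was in 4.68%, 16.9%, 3.99% and 3.84% of endothelial cells, against 17.1%, 32.3%, 6.82% and 28.9% of the CD8 T cells with Cd8b1. Itgae was in 2.92% to 6.98% and Xcl1 in 6.23% to 19.2% of endothelial cells. The cells without Cd8b1 lay above the endothelial share in each library for all 6 genes. Endothelial cells express Ly6a themselves, and Cd5 and Cd28 were in at most 0.151% and 1.07% of them.

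Signs of other lymphocyte types were looked for in the same 63 cells. None of the 63 was called a doublet. Trdc, the constant region of the gamma-delta receptor, had a UMI in 25.4% against 3.48%, and 2.42% to 2.79% of endothelial cells, which do not make it, had one in the 4 libraries. Trdc UMIs were also found in 23.1% to 30.2% of NK cells. The split by Cd8b1 was chosen after its values were seen and has no test, and a gamma-delta or NK part in it was not tested.

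The cells were also grouped by the granzyme UMIs they held at full depth. Gzmk without Gzmb was detected in 112 cells (24.1%), Gzmb without Gzmk in 86 (18.5%), both in 43 (9.25%) and neither in 224 (48.2%). Cells with Gzmk alone held Eomes, a factor of memory and exhausted CD8 T cells, in 33.9% and the inhibitory receptor Pdcd1 (PD-1) in 23.2%, but Itgae in 8.93%. Cells with Gzmb alone held Itgae in 59.3%, Fcer1g in 64.0%, Pdcd1 in 3.49% and the adaptor Tyrobp in 44.2%. Both kinds held Ccl5, a chemokine stored by memory CD8 T cells, in 100% and 91.9%, and Cxcr6, the receptor that retains T cells near CXCL16, in 83.0% and 81.4%. At a depth thinned to 1000 UMIs per cell, Gzmk was detected in 16.0%, 10.6%, 9.80% and 4.17% of CD8 T cells in deligated 1, deligated 2, homeostatic 1 and homeostatic 2, against at most 1.38% of endothelial cells. At full depth a Gzmk UMI was in 0 of 1987 and 0 of 3365 endothelial cells of the deligated libraries but in 4.01% and 3.45% of those of the homeostatic libraries. Gzmb was detected in 10.2%, 18.1%, 9.80% and 14.6% at that depth, against 2.29% to 6.46% of endothelial cells, and at full depth 16.9% of the endothelial cells of deligated 2 had a Gzmb UMI, so a cell with a Gzmb UMI is not shown to transcribe the gene.

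Transcripts of residency and of exit were counted by cell as well, after thinning to 1000 UMIs and in the same order of libraries. Itgae was detected in 5.34%, 15.6%, 17.6% and 20.8% of CD8 T cells, against 0.761% to 1.94% of endothelial cells, and at full depth in 18.4%, 33.1%, 33.3% and 43.8%. Deligated 1 had the lowest share at both depths, and deligated 2 lay close to homeostatic 1. Cxcr6 was detected in 34.5%, 43.1%, 23.5% and 33.3% (71.4%, 85.0%, 78.4% and 81.2% at full depth), with overlapping groups at full depth. Klf2 was detected in 23.8%, 23.8%, 7.84% and 8.33% (44.7%, 48.8%, 31.4% and 22.9% at full depth), and both deligated libraries lay above both homeostatic libraries. Endothelial cells, which express Klf2 themselves, held it in 50.6% to 57.3% at 1000 UMIs, so free Klf2 RNA was not measured by them.

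**Figure D2:**
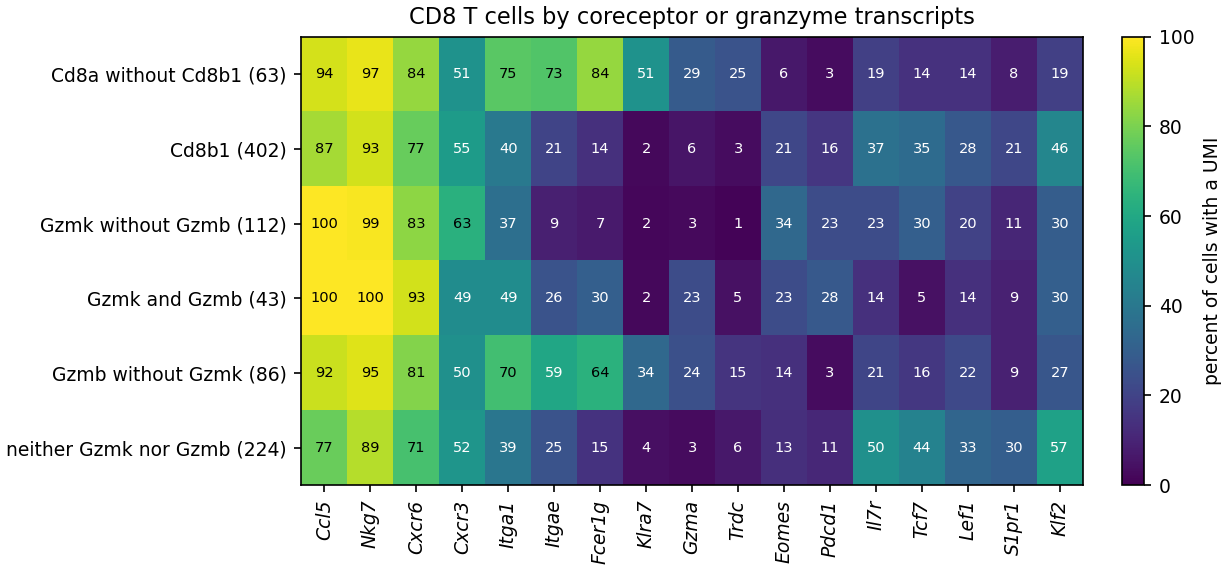
Percent of CD8 T cells with a UMI of each gene, at full depth and over all 4 libraries, in cells grouped by coreceptor or granzyme transcripts, with the number of cells in brackets (the groups overlap). Itgae, Fcer1g and Klra7 are frequent among cells without Cd8b1 and with Gzmb alone, and less frequent among cells with Gzmk alone.

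One receptor beta segment stood out in 1 library, a pattern chosen after its values were seen and counted at full depth. Trbv2 (ENSMUSG00000076462, GRCm38 chr6:41047340-41047995, plus strand), a variable segment of the receptor beta chain, was detected in 50 of the 206 CD8 T cells of deligated 1 (24.3%, exact 95% interval 18.6% to 30.7%). It was detected in 3, 2 and 1 cells of deligated 2, homeostatic 1 and homeostatic 2 (1.88%, 3.92% and 2.08%). Among the 98 cells of deligated 1 with a UMI of any beta variable segment, Trbv2 was in 51.0%. In the same library it was in 7 of 41 CD4 T cells (17.1%) and in 12 of 294 T cells with neither or both coreceptors (4.08%). These were 46.7% and 25.0% of the cells of those classes with any segment detected, and in homeostatic 1 Trbv2 was in 2 of the 5 CD8 T cells with any segment. Deligated 1 held it in 0 of 574 NK cells and 0 of 1987 endothelial cells. The Trbv2 cells of deligated 1 held Gzmk in 62.0% against 31.4% of its other CD8 T cells, Ccl4, a chemokine of activated T cells, in 70.0% against 37.2%, and Eomes in 36.0% against 17.3%. They held the interleukin-7 receptor Il7r in 6% against 39.7%, S1pr1 in 4% against 32.7%, Klrd1 in 14.0% against 39.7% and Itgae in 6% against 22.4%. Their median was 3976 UMIs against 5173. The receptor junctions were not read, so whether these cells are 1 clone was not measured.

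Gene levels in CD8 T cells were compared next between the groups, with UMIs summed over the CD8 T cells of each library. Of 6512 genes tested, 987 passed at an adjusted p of 0.05 (15.2%), 281 higher (4.32%) and 706 lower (10.8%) after deligation. The fall was concentrated in genes with long introns. Of all UMIs in CD8 T cells, genes with introns of over 100 kb in sum held 3.70% and 3.91% in the deligated and 9.62% and 9.68% in the homeostatic libraries, and 53.2% of the 785 such genes tested passed. Across genes the fold change fell with intron length (Spearman's rho -0.58 over the genes tested, which are not independent replicates), while rho was 0.01 and 0.03 for the difference between libraries within a group. Genes with at most 2 kb of intron had a median log2 fold change of 0.386. The headers do not say whether intron reads were counted, and the part of the software version in this pattern cannot be told apart from the surgery.

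For this reason the test was also run with the intron trend removed as an offset for each gene. It then passed 361 genes, 166 higher (2.55%) and 195 lower (2.99%), of which 260 had passed before and 256 of these in the same direction. As deposited, the test passed 800, 853, 464 and 536 genes without deligated 1, deligated 2, homeostatic 1 and homeostatic 2, and no library was left out with the trend removed. For the genes the results turn on, the value with the trend removed is given beside the value as deposited. Levels are in CPM, a gene's UMIs per 1000000 UMIs of the library's CD8 T cells, in the order deligated 1, deligated 2, homeostatic 1, homeostatic 2.

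**Figure D3:**
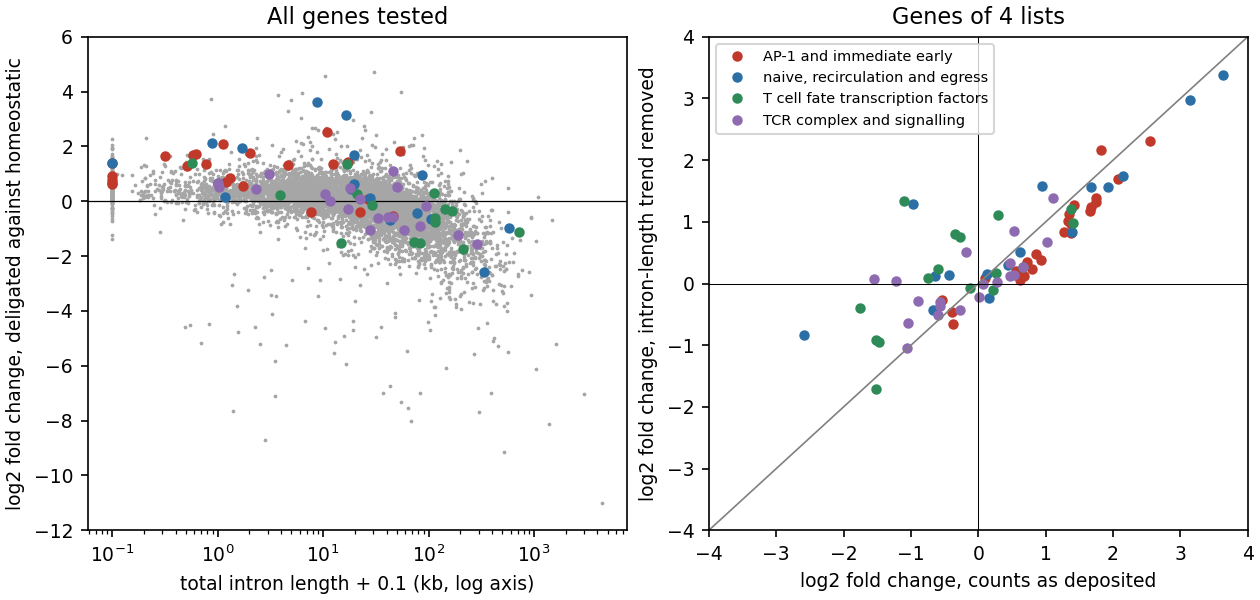
Left, log2 fold change of every gene tested (grey) against its total intron length in kb (log axis), with the genes of 4 lists coloured as in the key on the right. Right, the fold change of the listed genes as deposited against that with the intron trend removed, where the diagonal marks equal values. Immediate early genes lie above 0 in most cases in both fits, and several signalling genes and transcription factors with long introns move from below 0 to 0 or above it.

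Immediate early genes, which cells switch on within minutes of a stimulus and also during tissue dissociation, were higher after deligation. Of 24 genes listed and tested, 15 rose and 0 fell, against 4.32% and 10.8% of all genes. The median log2 fold change was 1.30 against 0.03 over all genes. With the trend removed 8 rose and 0 fell, with a median of 0.83, against 2.55% and 2.99% of all genes. Fos (GRCm38 chr12:85473890-85477273), a subunit of the AP-1 factor, had levels of 329, 496, 97.0 and 128 CPM. Both deligated libraries lay above both homeostatic libraries, with a log2 fold change of 2.07 (SE 0.24, adjusted p = 1.67e-05) and of 1.69 with the trend removed (adjusted p = 4.20e-04). Its partner Junb (chr8:84974484-84978718, overlapping Prdx2 on the other strand) had 720.1, 1104, 281 and 342 CPM, again without overlap. Its log2 fold change was 1.74 (SE 0.21, adjusted p = 3.30e-05) and 1.39 with the trend removed (adjusted p = 7.80e-04).

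Dusp1, Dusp5 and Btg1, of the same list, also rose. Dusp1 (chr17:26505590-26562128), a phosphatase that switches off stress kinases, had 142, 147, 48.5 and 45.1 CPM, so the groups were far apart and the libraries within each close together. Its log2 fold change was 1.82 (SE 0.26, adjusted p = 8.00e-05) and 2.17 with the trend removed, and its annotated span overlaps Ergic1 on the other strand. Dusp5, a phosphatase for ERK, had 99.3, 114, 29.1 and 11.3 CPM (log2 fold change 2.54, SE 0.36, adjusted p = 8.00e-05, and 2.31 with the trend removed). Btg1, a brake on cell division, had 2950, 2401, 886 and 959 CPM (log2 fold change 1.74, SE 0.15, adjusted p = 5.38e-07, and 1.32 with the trend removed). Nfkbia, Nfkbiz, Tnfaip3 and Rel of the NF-kappa-B pathway, on the same list, did not pass, and neither did Fosb and Nr4a1. Nfkbia passed under 5 of 18 alternatives and Fosb under 5 of 17. As a share of cells, thinned to 1000 UMIs each, Fos was detected in 16.5% and 30.0% after deligation and in 3.92% and 14.6% without surgery.

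Promoter windows of the immediate early list were searched for the cAMP response element (CRE), since 15 of its 24 genes rose and 0 fell. The windows run from 250 bases before to 50 bases after each gene start in RefSeq on GRCm38.p6, and 20 of the 24 listed genes were matched. Of the 20, 3 (15.0%) held the full CRE letters TGACGTCA, a palindrome read the same on both strands, against 3.73% of the genes tested, 2.03% of all genes and 1.79% of all 32851 windows. All 3 are among the 12 matched genes that rose, a subset chosen by its values. The windows of these 3 genes are shown 5′ to 3′ on the coding strand, because they carry the shared motif, which is in capitals.
Dusp1 (chr17:26508423-26508722, minus strand): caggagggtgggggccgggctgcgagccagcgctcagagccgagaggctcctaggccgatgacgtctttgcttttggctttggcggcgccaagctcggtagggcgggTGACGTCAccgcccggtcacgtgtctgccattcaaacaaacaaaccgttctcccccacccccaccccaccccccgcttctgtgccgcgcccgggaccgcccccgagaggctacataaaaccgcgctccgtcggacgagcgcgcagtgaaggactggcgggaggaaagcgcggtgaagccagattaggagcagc
Btg2 (chr1:134079106-134079405, minus strand): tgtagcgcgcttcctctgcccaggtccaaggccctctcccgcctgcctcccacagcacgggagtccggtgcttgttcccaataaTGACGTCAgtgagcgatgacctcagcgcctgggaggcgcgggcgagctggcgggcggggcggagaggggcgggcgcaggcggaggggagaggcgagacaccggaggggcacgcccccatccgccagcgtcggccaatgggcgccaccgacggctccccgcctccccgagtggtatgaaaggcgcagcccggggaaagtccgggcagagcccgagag
Ppp1r15a (chr7:45526219-45526518, minus strand): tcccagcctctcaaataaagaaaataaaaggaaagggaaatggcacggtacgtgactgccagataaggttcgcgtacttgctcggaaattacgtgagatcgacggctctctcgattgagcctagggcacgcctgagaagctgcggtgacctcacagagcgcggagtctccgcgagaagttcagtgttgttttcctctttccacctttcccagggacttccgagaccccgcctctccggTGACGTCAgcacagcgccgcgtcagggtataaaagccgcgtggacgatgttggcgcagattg
The CRE begins 143, 166 and 12 bases before the start of Dusp1, Btg2 and Ppp1r15a. Btg2, a brake on proliferation, had 469, 756, 359 and 417 CPM (log2 fold change 0.85, adjusted p = 0.0131), and Ppp1r15a, which restores protein synthesis after stress, had 127, 120, 74.3 and 41.4 CPM (log2 fold change 1.27, adjusted p = 0.00392). Neither passed with the trend removed (adjusted p = 0.251 and 0.0956), whereas Dusp1 did. Btg2 also missed the threshold without deligated 2 (0.53, adjusted p = 0.101), homeostatic 1 (0.73, 0.181) or homeostatic 2 (0.96, 0.0817), and Ppp1r15a without homeostatic 2 (0.93, 0.1). The AP-1 letters TGANTCA were in 5.00% of the 20 listed genes, against 5.84% of genes tested, and the CArG box, searched by its name's usual letters, in 10.0% against 1.59%. These matches only describe the windows. Whether they are bound or have a part in the rise was not tested.

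Genes that respond to glucocorticoids moved in part. Of 9 tested, 3 rose and 1 fell (median log2 fold change 1.29), and 2 rose with the trend removed (median 1.26). For all genes the shares were 4.32% higher and 10.8% lower, and 2.55% and 2.99% with the trend removed. Tsc22d3, which encodes the glucocorticoid-induced leucine zipper, had 118, 163, 58.2 and 37.6 CPM, with no overlap between groups. Its log2 fold change was 1.72 (SE 0.28, adjusted p = 3.75e-04) and 2.11 with the trend removed. The kinase gene Sgk1 had 44.2, 52.4, 29.1 and 15.0 CPM, a log2 fold change of 1.29 (SE 0.41, adjusted p = 0.0434) that missed the threshold without deligated 2 (1.22, adjusted p = 0.111), homeostatic 1 (1.85, 0.0753) or homeostatic 2 (0.92, 0.29). With the trend removed it was 2.10 (adjusted p = 0.00408). Fkbp5, another classical target with long introns, fell by 1.34 on the log2 scale (adjusted p = 0.0283) and did not pass with the trend removed (adjusted p = 0.521) or without deligated 2 (0.0905), homeostatic 1 (0.137) or homeostatic 2 (0.129). The chemokine receptor Cxcr4 did not pass (log2 fold change 2.32, adjusted p = 0.0741), although it did under 4 of 15 alternatives. The clock gene Per1 did not pass either (-0.43, adjusted p = 0.651). Of 11 heat shock genes, Hspa8 and Hsp90aa1 passed as higher and 0 did with the trend removed. Both missed the threshold without homeostatic 1 (adjusted p = 0.103 and 0.262) or homeostatic 2 (0.167 and 0.179), and Hsp90aa1 also without deligated 1 (0.178).

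Among genes of T cell exit, recirculation and the naive state, Klf2 rose after deligation, and the list as a whole gave no common direction as deposited. Of 16 tested, 3 rose and 3 fell, beside 4.32% and 10.8% of all genes (median 0.53). With the trend removed 4 rose and 0 fell, beside 2.55% and 2.99% of all genes (median 0.67). Klf2 (chr8:72319033-72321656), the factor that switches on exit receptors, had 457, 369, 149 and 63.9 CPM. Both deligated values lay well above both homeostatic values, with a log2 fold change of 2.14 (SE 0.34, adjusted p = 0.0035) and 1.74 with the trend removed (adjusted p = 0.0225). The call was lost among genes with at most 10 kb of intron (1.81, adjusted p = 0.0898) and after thinning each cell to 1000 UMIs (1.79, adjusted p = 0.076). Markers of endothelial cells, which express Klf2, summed to 80.3, 181, 48.5 and 48.9 CPM in the CD8 T cells, higher in both deligated libraries, with Cldn5 at 0 in all but deligated 2. At least 2 of their UMIs were in 7.28%, 21.2%, 5.88% and 6.25% of the cells. The part of endothelial RNA in the Klf2 result was not tested.

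The exit receptor itself was less certain. S1pr1 had 108, 50.1, 29.1 and 18.8 CPM and a log2 fold change of 1.93 (SE 0.52, adjusted p = 0.0379), which missed the threshold with the trend removed (adjusted p = 0.151) and without deligated 1 (1.23, 0.0895), homeostatic 1 (2.28, 0.354) or homeostatic 2 (1.67, 0.396). Tcf7, a factor of naive and central memory T cells like Lef1, had 89.3, 104, 103 and 97.8 CPM, with overlapping groups and a log2 fold change of 0.13 (adjusted p = 0.78). Lef1 had -0.65 (adjusted p = 0.563) and ranged from -1.96 to 0.12 over 16 alternatives, passing under 3, among them without deligated 1 (-1.42, adjusted p = 1.84e-04). Il7r had 0.62 (adjusted p = 0.0521) and passed under 5 of 17, with a range of -0.40 to 0.80. Foxp1, a keeper of T cell quiescence with very long introns, passed in opposite directions in the 2 fits, at -0.97 (adjusted p = 0.00326) and at 1.29 with the trend removed (adjusted p = 8.81e-04), the first not without homeostatic 1 (-0.82, adjusted p = 0.0791).

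Residency genes gave no common direction: of 17 tested, 2 rose and 4 fell, and 3 rose and 1 fell with the trend removed (median -0.11 and -0.16). Among all genes tested 4.32% rose and 10.8% fell, and 2.55% and 2.99% did with the trend removed. Cd69 (chr6:129267325-129275436), which pulls S1PR1 off the surface and is itself an early activation gene, had 485, 549, 294 and 267 CPM. The groups were separate and each pair of libraries close, with a log2 fold change of 1.08 (SE 0.18, adjusted p = 5.24e-04) and 0.72 with the trend removed (adjusted p = 0.0272). Among genes with at most 10 kb of intron it was 0.75 and missed the threshold (adjusted p = 0.0712). Rgs1, which blunts chemokine signals in tissue T cells, had 729, 827, 239 and 342 CPM (log2 fold change 1.62, SE 0.19, adjusted p = 1.75e-05, and 1.06 with the trend removed). Cd101, an inhibitory surface protein of resident memory cells, had 27.1, 17.1, 84.0 and 71.4 CPM and fell by 1.59 on the log2 scale (SE 0.36, adjusted p = 0.00541, and by 1.49 with the trend removed), but not without homeostatic 1 (-1.47, adjusted p = 0.0868) or with DESeq2 (adjusted p = 0.127).

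Itgae (chr11:73090583-73147446, overlapping Haspin on the other strand) had 65.9, 147, 191 and 237 CPM. Both deligated values lay below both homeostatic values, yet the deligated pair were far apart and the log2 fold change of -0.83 did not pass (SE 0.37, adjusted p = 0.205), although it did under 6 of 17 alternatives. It was -1.44 without deligated 2 (adjusted p = 1.26e-05), where the spread between libraries comes from the homeostatic pair alone. Among the cells with Cd8b1 only, an alternative added after seeing the data, it was -1.18 and passed (adjusted p = 0.00661). With the trend removed over all CD8 T cells it was -0.49 (adjusted p = 0.576). Cxcr6 had 425, 521, 343 and 448 CPM and Itga1 112, 221, 207 and 286 CPM, both with overlapping groups and below the threshold (log2 fold changes 0.46 and -0.38).

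Of 19 effector genes tested, Ccl4, Ccl5, Nkg7, Gzmk and Prf1 rose and Tnf fell (median 0.33), beside 4.32% and 10.8% of all genes. With the trend removed 2 rose and 1 fell (median -0.01), beside 2.55% and 2.99% of all genes. Ccl4 had 413, 371, 204 and 207 CPM, with clearly separate groups (log2 fold change 1.14, SE 0.20, adjusted p = 6.76e-04, and 0.77 with the trend removed, adjusted p = 0.0282), but 0.81 among genes with at most 10 kb of intron missed the threshold (adjusted p = 0.0712). Ccl5 had 8610, 7072, 4757 and 5983 CPM, a log2 fold change of 0.75 (SE 0.14, adjusted p = 0.0045) that did not pass with the trend removed (0.43, adjusted p = 0.127) or without homeostatic 1 (0.58, adjusted p = 0.0557). The granule protein gene Nkg7 followed the same course (0.67, adjusted p = 0.00488, against 0.21 with the trend removed, and 0.59 with an adjusted p of 0.1 without homeostatic 1). The inflammatory cytokine gene Tnf had 78.5, 84.3, 132 and 203 CPM and fell by 0.83 on the log2 scale (SE 0.24, adjusted p = 0.0245, and by 1.22 with the trend removed), but not without homeostatic 2 (-0.50, adjusted p = 0.35).

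Among granzymes and perforin, Gzmk and Prf1 passed and Gzmb and Gzma did not. Gzmk (chr13:113171608-113225908, overlapping Esm1 on the other strand) had 125, 94.5, 80.8 and 60.2 CPM, a log2 fold change of 0.84 (SE 0.27, adjusted p = 0.0432) and 1.19 with the trend removed (adjusted p = 0.0131). The share of endothelial cells with a Gzmk UMI, given above, also differed between the groups, in the opposite direction, and its part in this value was not tested. The call was lost without deligated 1 (0.60, adjusted p = 0.295), homeostatic 1 (1.07, 0.108) or homeostatic 2 (0.66, 0.304). Without the cells holding Trbv2, which were mostly in deligated 1 and often held Gzmk, it was 0.60 (adjusted p = 0.133). Gzmb (chr14:56258838-56262260) had 294, 608, 223 and 613 CPM, with as large a gap between libraries of 1 group as between groups (log2 fold change 0.30, adjusted p = 0.874). Gzma ranged from 16.2 to 910 CPM between the 2 homeostatic libraries and did not pass. Without homeostatic 2 its log2 fold change was 4.42, with the spread taken from the deligated pair alone. Few cells held its UMIs: 86.0%, 55.1% and 90.5% lay in 3 cells each of deligated 1, deligated 2 and homeostatic 2. Homeostatic 1 had 5 Gzma UMIs in 1 cell. Perforin, Prf1, had 66.8, 67.2, 35.6 and 37.6 CPM (log2 fold change 1.07, SE 0.32, adjusted p = 0.0311), and missed the threshold with the trend removed (adjusted p = 0.218) and without deligated 1 (1.07, 0.0684), homeostatic 1 (1.02, 0.188) or homeostatic 2 (1.11, 0.125). Ifng had 126, 139, 42.0 and 120 CPM and did not pass (log2 fold change 0.94, adjusted p = 0.133). It passed under 8 of 18 alternatives, among them without deligated 1 (1.00, adjusted p = 0.0118), deligated 2 (0.92, 0.0186) or homeostatic 2 (1.85, 0.005), and among cells with Cd8b1 (1.19, 0.0353). In the first 3 of these only 1 group gives the spread.

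Regulators of effector fate moved in both directions. Of 16 fate transcription factors tested, 3 rose and 5 fell (median -0.30), beside 4.32% and 10.8% of all genes. With the trend removed 2 rose and 3 fell (median 0.20), beside 2.55% and 2.99% of all genes. Tbx21 (chr11:97098071-97115331), which encodes T-bet, the factor of type 1 effector T cells, had 27.1, 31.9, 100.2 and 94.0 CPM. Both deligated values lay far below both homeostatic values, with a log2 fold change of -1.52 (SE 0.30, adjusted p = 0.00185) and of -1.71 with the trend removed. With DESeq2 it missed the threshold (adjusted p = 0.071). Ikzf1 and Ikzf3, the Ikaros family factors, fell by 1.51 and 1.47 (adjusted p = 5.86e-05 and 9.09e-05) and by 0.91 and 0.95 with the trend removed. Runx1 fell by 1.75, with -0.39 and an adjusted p of 0.504 once the trend was removed. Eomes had 56.9, 51.3, 64.6 and 41.4 CPM, with overlapping groups (log2 fold change 0.22). The 3 that rose were Id2, Id3 and Maf, by 0.66, 1.40 and 1.37 on the log2 scale (adjusted p = 0.029, 0.0392 and 0.0204). None of these passed with the trend removed (adjusted p = 0.528, 0.261 and 0.0787) or without homeostatic 1 (0.28, 0.271 and 0.254). Id2 and Id3 also missed the threshold without deligated 2 (0.188 and 0.225) or homeostatic 2 (0.0974 and 0.11), and Maf without deligated 1 (0.0633).

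Of 19 cytokine and chemokine receptors tested, 1 rose and 5 fell, beside 4.32% and 10.8% of all genes. With the trend removed 0 rose and 3 fell, beside 2.55% and 2.99% of all genes. The one that rose was Il2rg, the receptor chain common to several interleukins, with 300.5, 303, 171 and 229 CPM (log2 fold change 0.79, SE 0.21, adjusted p = 0.0152). It did not pass with the trend removed (0.43, adjusted p = 0.293) or without homeostatic 1 (0.58, adjusted p = 0.247). Il18r1, a receptor for interleukin-18, had 49.6, 77.5, 168 and 154 CPM and fell by 1.16 on the log2 scale (SE 0.25, adjusted p = 0.00336, and by 1.10 with the trend removed), but did not pass with DESeq2 (adjusted p = 0.0965). Tgfbr1, a receptor for TGF-beta, which sustains residency, had 22.6, 23.9, 71.1 and 90.2 CPM and fell by 1.58 (SE 0.34, adjusted p = 0.00348, and by 1.21 with the trend removed), but not without homeostatic 2 (-1.41, adjusted p = 0.067) or with DESeq2 (adjusted p = 0.102). Ccr10, a receptor for chemokines of skin and mucosal epithelium, had 0 and 2.28 CPM against 42.0 and 18.8 CPM. Over the groups these were 2 and 18 UMIs, 31.1 times fewer after deligation (exact 95% counting interval 7.44 to 276), and with the trend removed Ccr10 still passed (adjusted p = 0.00301). The call was lost without deligated 1 (-3.43, adjusted p = 0.243) or deligated 2 (-6.96, adjusted p = 0.0624).

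Receptor signalling genes gave no common direction. Of 20 tested, 4 rose and 5 fell, beside 4.32% and 10.8% of all genes. With the trend removed 2 rose and 0 fell, beside 2.55% and 2.99% of all genes. Fyn and Skap1, which carry signals from the receptor, fell by 1.23 and 1.55, and with the trend removed neither passed, standing at 0.05 and 0.07. The exhaustion factor Tox likewise went from -1.55 (adjusted p = 0.0396) to 0.11, and its call was lost without homeostatic 1 (adjusted p = 0.332) or homeostatic 2 (0.232). Of the inhibitory receptors, Pdcd1 had 46.0, 15.9, 25.9 and 22.6 CPM and Ctla4 47.8, 27.3, 19.4 and 22.6 CPM, and neither passed. The lymphocyte kinase Txk had 227, 302, 93.7 and 188 CPM (log2 fold change 1.11, SE 0.29, adjusted p = 0.0246, and 1.38 with the trend removed), but was lost without homeostatic 1 (0.67, adjusted p = 0.21).

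Genes of antigen presentation, interferon response and division were counted against the 4.32% of all genes that passed as higher and the 10.8% as lower. Of 15 MHC class I genes, 3 rose and 1 fell. H2-K1, H2-D1 and Psme1 passed as higher by 0.44 to 0.62 on the log2 scale, none of them with the trend removed. Without homeostatic 1 their adjusted p were 0.173, 0.173 and 0.183, and without homeostatic 2 they were 0.0827, 0.235 and 0.179. H2-K1 and H2-D1 were also lost without deligated 2 (0.0922 and 0.192) and Psme1 without deligated 1 (0.19). Nlrc5, the activator of these genes, fell by 1.48 (0.86 with the trend removed, adjusted p = 0.0309). Of 24 interferon-induced genes 1 rose and 0 fell. This was Ly6a, with 296, 365, 152 and 195 CPM (log2 fold change 1.13, SE 0.21, adjusted p = 0.00133, and 0.78 with the trend removed). It was lost without homeostatic 1 (0.94, adjusted p = 0.0563) and among genes with at most 10 kb of intron (0.80, adjusted p = 0.111). Of 9 cell cycle genes tested, Birc5, which encodes survivin, fell, from 12 UMIs in the homeostatic to 3 in the deligated libraries, 13.8 times fewer per UMI sequenced (counting interval 3.73 to 76.2, adjusted p = 0.00957, and 0.0128 with the trend removed). The call was lost with DESeq2 (adjusted p = 0.151) and among genes with at most 10 kb of intron (0.0955). Mki67 had 19.9, 4.56, 35.6 and 30.1 CPM and did not pass (log2 fold change -1.15, adjusted p = 0.252). At 1000 UMIs per cell, at least 2 UMIs of cell cycle genes were found in 2.91% and 1.88% of CD8 T cells after deligation and in 7 of 51 (13.7%) and 4 of 48 (8.33%) without surgery. Of 13 NK-type receptors tested 0 rose and 1 fell (Cd226, not with the trend removed), and of the 4 circadian and 4 gamma-delta genes tested none passed.

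**Figure D4:**
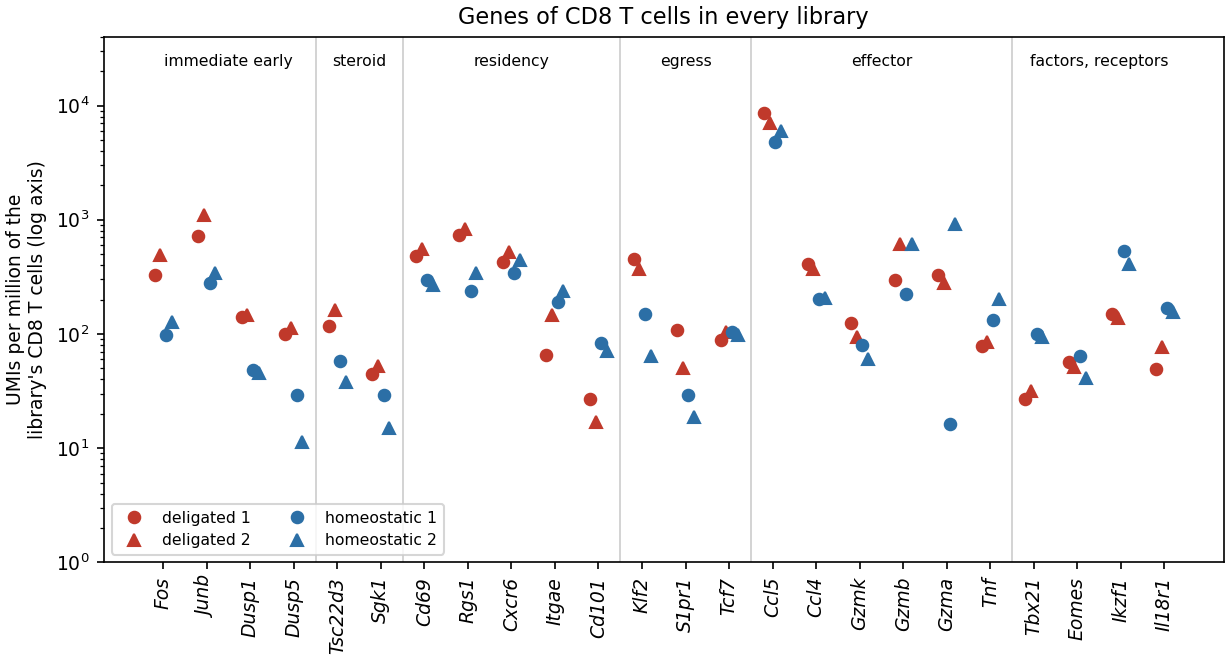
CPM in CD8 T cells (log axis) for genes of 6 kinds in each library (steroid stands for glucocorticoid-responsive genes), red for deligated and blue for homeostatic, circles for replicate 1 and triangles for replicate 2. Fos, Junb, Dusp1 and Klf2 are higher in both deligated libraries and Tbx21, Ikzf1 and Cd101 lower, while Gzma and Gzmb spread more within a group than between groups.

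RNA of other cell types was measured in the CD8 T cells beside these results. A list of 15 epithelial and secretory genes summed to 36.1 and 87.7 CPM in the deligated and 915 and 1380 CPM in the homeostatic libraries, with Bhlha15 and Bpifa2 at 0 in all 4. At least 2 of its UMIs were in 3.88% and 5.00% of cells after deligation and in 88.2% and 95.8% without surgery. The salivary genes Prol1 and Pip fell by 4.63 and 4.60 on the log2 scale, in the same direction as the share of epithelial cells in the libraries. Fibroblast markers summed to 939, 2606, 38.8 and 1681 CPM, with 4 of the 8, Mfap5 among them, at 0 in homeostatic 1, and at least 2 of their UMIs were in 9.22%, 35.6%, 3.92% and 6.25% of cells. Mfap5 and Cilp, among the largest rises, were at 0 in both homeostatic libraries and at least 10.5-fold and 9.37-fold higher after deligation against a floor of 3 UMIs over the group. Their UMIs lay in few cells, those of Mfap5 in 2 of 206 and 4 of 160 and those of Cilp in 2 and 7. Myeloid markers summed to 33.4, 212, 1367 and 63.9 CPM, red cell genes to 475, 8279, 2392 and 117 CPM, and NK markers to 420, 1280, 1028 and 1012 CPM, each with overlapping groups. For the red cell gene Hbb-bs, 94.6%, 98.1%, 92.1% and 37.5% of the UMIs lay in 3 cells per library. Endothelial markers, given beside Klf2, were higher in both deligated libraries. The part of this RNA in the changes above was not tested.

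Other genes of largest change follow. Itm2a, a membrane protein of activated T cells, had 58.7, 64.9, 3.23 and 11.3 CPM (log2 fold change 3.30, adjusted p = 2.14e-04, and 0.00197 with the trend removed), but 63.1% and 75.4% of its UMIs in the deligated libraries lay in 3 cells each. The olfactory receptor pseudogene Olfr1369-ps1 was as uneven, with 86.9% and 91.1% in 3 cells, and its call was lost without homeostatic 1 (adjusted p = 0.0524) or homeostatic 2 (0.0665). Gm20388, Gm26561, Gm11290, Gm37240 and Il31ra, the last a cytokine receptor chain, were at 0 in both deligated libraries and at least 296-fold, 81.7-fold, 58.7-fold, 40.3-fold and 36.8-fold lower there than in the homeostatic libraries. A gene read at 0 throughout one group beside a software version that also differs cannot be told apart from a change in how its reads were assigned.

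CD8 T cells were next set against the CD4 T cells of the same libraries, to describe what distinguishes them in this gland. Of 3201 genes tested with the library as a block, 123 passed (3.84%), 66 higher (2.06%) and 57 lower (1.78%) in CD8 T cells. Of 15 cytotoxic genes, 9 were higher and 1 lower, with a median log2 fold change of 1.80 against -0.01 over all genes. Gzmb was at 294, 608, 223 and 613 CPM in CD8 and at 0, 54.8, 13.9 and 39.2 CPM in CD4 T cells, higher in CD8 T cells in each library (log2 fold change 4.10, SE 0.27, adjusted p = 3.43e-22). Gzmc, a related granzyme, was 3.91 higher, Gzmk 3.16, Ccl5 2.73 and Nkg7 1.49. In CD8 T cells, 96.1%, 37.2%, 95.8% and 79.9% of the Gzmc UMIs lay in 3 cells per library, in the order above. Prf1 was not among the genes tested here. Ccl5 and Gzmk were higher in CD8 than in CD4 T cells in each of the 4 libraries.

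Of 15 residency genes 5 passed, all higher in CD8 T cells, and the median over the 15 was 0.13. Itgae was at 65.9, 147, 191 and 237 CPM against 10.4, 0, 13.9 and 49.0 CPM (log2 fold change 3.27, SE 0.38, adjusted p = 1.38e-11), and Itga1, the collagen-binding integrin chain, and the factor Runx3 were 1.26 and 1.41 higher. Cd160, a receptor of epithelial and memory CD8 T cells that overlaps Pdzk1 on the other strand, was at 121, 122, 188 and 128 CPM in CD8 T cells and had 2 UMIs in all CD4 T cells, 35.7 times fewer (counting interval 9.80 to 296). Cxcr6 (0.30, adjusted p = 0.524) and Cd69 (-0.11, adjusted p = 0.847) did not pass. Of 7 NK-type receptor genes 4 passed as higher, among them Klrd1 (2.54, adjusted p = 1.89e-08) and Fcer1g (2.72, adjusted p = 1.11e-11). Without the 63 cells lacking Cd8b1, the log2 fold change of Fcer1g was 1.03 (adjusted p = 0.0286), of Gzmb 2.96, of Itgae 2.63 and of Klrd1 2.08.

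Other genes were lower in CD8 than in CD4 T cells. Izumo1r, the folate receptor of regulatory and follicular T cells, Cd40lg, which helps B cells, and the factor Maf were 3.79, 3.17 and 2.58 lower in CD8 T cells on the log2 scale. Cd5 and Cd28 were also lower in CD8 T cells, by 1.40 and 1.05 (adjusted p = 1.57e-06 and 8.91e-06). Of 22 immediate early genes 5 were lower in CD8 T cells and 0 higher, Fos by 0.78 (adjusted p = 0.00106) and Dusp1 by 1.01 (adjusted p = 5.95e-04), the first not without homeostatic 2 (-0.64, adjusted p = 0.109) and the second not without deligated 1 (-0.81, adjusted p = 0.129) or under a stricter rule for the T cells (-1.09, 0.068). S1pr1 was 1.20 lower (adjusted p = 1.25e-04), but not under the stricter rule (-1.22, adjusted p = 0.058), and Tcf7 and Lef1 did not pass. The salivary genes Scgb2b26 and Car6 were 3.52 and 3.27 lower in CD8 T cells, and no CD4 T cell of the deligated libraries held a UMI of either.

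Against NK cells, the other large cytotoxic class, 1355 of 9978 genes passed (13.6%), 639 higher (6.40%) and 716 lower (7.18%) in CD8 T cells. NK cells had been chosen to lack the receptor complex, so the 16 of 20 receptor genes that were higher in CD8 T cells are tied to that choice. Perforin was lower in CD8 T cells, at 66.8, 67.2, 35.6 and 37.6 CPM against 195, 171, 169 and 157 CPM (log2 fold change -1.55, SE 0.15, adjusted p = 7.27e-08), with every CD8 value below every NK value. Xcl1 was 1.91 lower and Gzmb 1.93 lower (adjusted p = 0.0166), the latter not without deligated 1 (-1.80, adjusted p = 0.2) or deligated 2 (-2.00, adjusted p = 0.0765). The call was also lost without the cells with a Trdc UMI (-2.23, adjusted p = 0.121) and without those lacking Cd8b1 (-3.17, 0.0591). Gzmk was at 125, 94.5, 80.8 and 60.2 CPM against 2.63, 0, 1.25 and 0.445 CPM, 6.65 higher on the log2 scale (adjusted p = 1.92e-05), and Ccl5 was 0.58 higher. Nkg7 did not pass (0.01, SE 0.11, adjusted p = 0.98).

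Trafficking and interferon genes also set CD8 T cells apart from NK cells. Of 17 naive and exit genes 9 were higher and 0 lower, with Il7r 3.88, Lef1 3.72, S1pr1 3.49, Klf2 1.87 and Tcf7 1.86 higher on the log2 scale. Cxcr6 was 1.66 higher and Cxcr3, a receptor for interferon-induced chemokines, 1.88 higher. Of 24 interferon-induced genes 13 were higher and 0 lower (median 0.71 against -0.02 over all genes). Among them Ly6a was at 296, 365, 152 and 195 CPM against 51.8, 79.8, 25.2 and 20.7 CPM (2.61, SE 0.13, adjusted p = 4.47e-14), and Ifit3 was 1.66 higher. Pdcd1 was 6.12 higher, while Tbx21 and Eomes, factors that both cell types use, were 0.62 and 1.08 lower. Of 19 NK-type receptors 10 were lower and 0 higher. Klri2 was 6.32 lower, and Klra4 was 6.51 lower, the latter not without deligated 1 (-6.00, adjusted p = 0.0668) or deligated 2 (-6.54, adjusted p = 0.105). Adamts14 and Khdc1a were at 0 in all CD8 T cells and at least 34.4-fold and 19.8-fold lower than in NK cells.

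**Figure D5:**
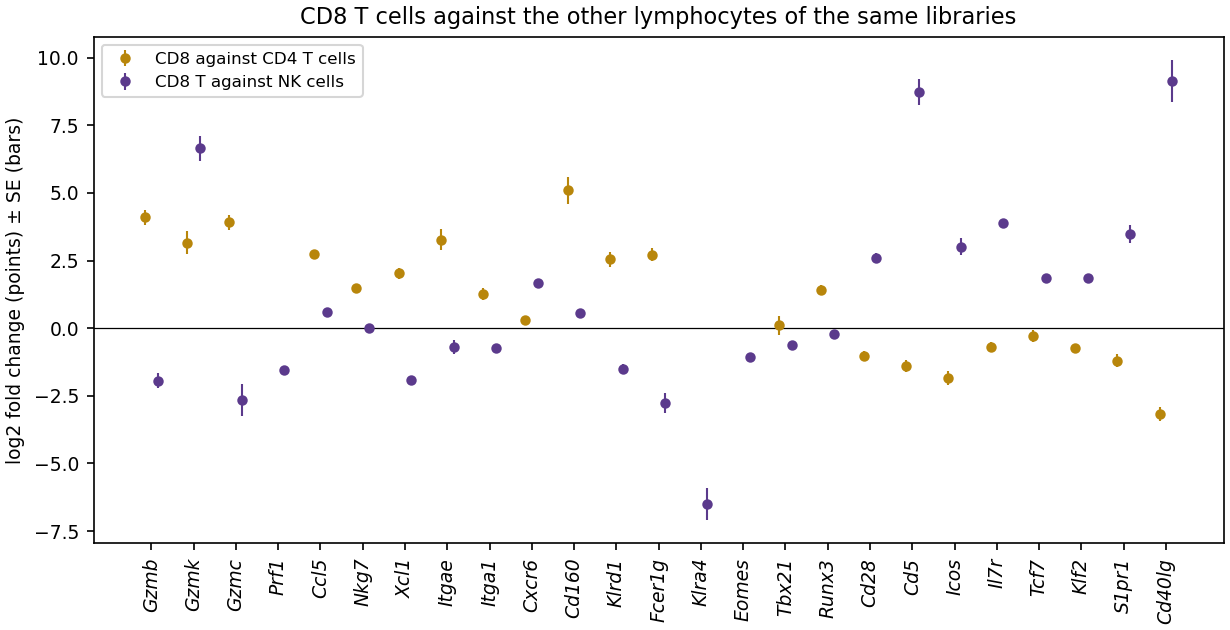
Log2 fold change (points) and SE (bars) of CD8 T cells against CD4 T cells (gold) and against NK cells (purple) of the same 4 libraries; a gene without a point was not tested in that comparison. Cd40lg against NK cells (0 UMIs there), and Cd5 against NK and Cd160 against CD4 T cells (2 UMIs there), depend on the prior count of the fit. Granzymes, Ccl5 and Itgae lie above 0 against CD4 T cells, while Gzmb and Prf1 lie below 0 and Gzmk, Il7r and S1pr1 above 0 against NK cells.

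Whether deligation acted differently on CD8 and CD4 T cells was tested by the interaction of cell class and group. Of 4269 genes tested, 8 passed (0.187%), and 234 had an unadjusted p under 0.05. None of the genes in the lists of T cell function passed, from immediate early and exit genes to cytotoxic molecules. The log2 changes of Fos and Klf2 with deligation in the 2 classes are therefore not shown to differ. In data simulated for this comparison, the interaction test found 8% of genes with a 4-fold difference. The spread between libraries was set beforehand there and not estimated from these data, so the share missed here was not measured. A gene not called is not shown to lack a difference.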

How the data were processed

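RNA of single cells was measured with 10x droplet libraries, 2 deligated and 2 homeostatic. The authors deposited raw UMI counts per gene and cell barcode, made with Cell Ranger 6.0.1 (deligated) and 7.0.0 (homeostatic) per the file headers, with Seurat and the mm10 build named in the submitters' processing notes. Whether intron reads were counted is not given in the sources used here.

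Cells with at least 300 genes and at most 10% mitochondrial UMIs were classed by raw UMIs, in the order of the rule given in the report, and CD4 T and NK cells by matching rules. Doublets were called with Scrublet in each library (scanpy 1.11.5) and kept, with their removal as an alternative. Counts were summed per library and class and tested with edgeR 4.0.16 in R 4.3.3 (filterByExpr, TMM, robust quasi-likelihood test, Benjamini-Hochberg adjustment over all genes tested, threshold 0.05), and this is the test behind every adjusted p that names no other tool. CD8 T cells were compared with CD4 T and NK cells with the library as a block. Cells per class were tested in the same way. No permutation test is given, since with 2 libraries a group the smallest two-sided p would be 0.333. Intron lengths came from GENCODE M21 on GRCm38, and the trend of fold change on intron length was subtracted as an offset in the second fit. Shares of cells with a UMI were taken at full depth or after thinning each cell to 1000 UMIs. Where thinning is not named, coreceptor, marker and Trbv2 shares and the splits by Cd8b1 and granzymes are at full depth. So are the endothelial shares of Fcer1g and the genes printed with it. The exact 95% intervals cover counting error only. The fits were tested on simulated data, with a spread between libraries set beforehand and not estimated from these data. There 44% of 4-fold and 6% of 2-fold changes were found in the comparison of the groups.

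The alternatives were DESeq2 1.42.0, RLE scaling, no filter, a replicate block, stricter cell rules, thinning, short introns and leaving out each library or the called doublets. Leaving out cells with Trbv2 or without Cd8b1, and cells with Trdc in the comparison with NK cells, was added after seeing the data. The cells and the gene lists were chosen with earlier results of these data known. Named genes were a fixed set of T cell genes, up to 4 called genes of each list with the largest fold change, and the 5 largest rises and falls in each comparison. Of these only genes that serve the account are printed, and others outside the rule (Trbv2, the Cd8b1 split, the genes tied to them, Btg1, Btg2, Ppp1r15a and list members printed for their role) were chosen after their values were seen. Some genes, and 1 further alternative that needs one of them, are not reported here. No proteins were used here.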

Additional observations from a re-analysis of the deposited data

Results flagged for a closer look

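The effect of deligation differed between CD8 and CD4 T cells in 8 genes by the interaction test (edgeR, adjusted p under the threshold), and none of the 8 belongs to the lists of T cell function. The difference of the log2 effects, CD8 minus CD4, was 4.87 for Prol1, 3.60 for Scgb2b27, 2.71 for Scgb1b27 and 2.54 for Mucl2, all secretory genes of salivary epithelium. Prol1 had 13.5, 12.5, 368 and 387 CPM in CD8 and 5.19, 0, 2634 and 2020 CPM in CD4 T cells, in the order deligated 1, deligated 2, homeostatic 1, homeostatic 2. The difference was 5.47 for Hbb-bt, a haemoglobin chain, with 892 CPM in the CD8 T cells of deligated 2 and at most 67.9 CPM elsewhere. For Hbb-bs, another haemoglobin chain, 98.1% of the UMIs in the CD8 T cells of deligated 2 lay in 3 of 160 cells. The spread of Hbb-bt over cells was not counted. For the MHC class II genes H2-Eb1 and Cd74 the difference was 6.98 and 2.98, and their highest levels in both classes were in homeostatic 1.

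Malt1, a signalling protein downstream of the T cell receptor, was the gene of lower difference, at -2.07. It had 76.7, 122, 184 and 173 CPM in CD8 and 150, 197, 69.7 and 68.7 CPM in CD4 T cells, so that deligated libraries were lower in the first and higher in the second. Its homeostatic CD4 values rest on 5 and 7 UMIs, and its call was lost without any 1 of the 4 libraries (adjusted p = 0.0705 to 0.236). Without called doublets the interaction test called 1 gene, which was none of the 8, and Cd74 stood at 0.063 without homeostatic 1. Without deligated 2, only 1 of the 8 was among the genes called. Prol1 (4.03, adjusted p = 0.0594), Scgb2b27 (3.07, 0.47), Scgb1b27 (2.77, 0.0545), Hbb-bt (1.96, 1), H2-Eb1 (3.50, 1) and Cd74 (3.88, 0.0998) were lost, and Mucl2 was kept. Hbb-bt was also lost without homeostatic 1 (adjusted p = 0.0618) or homeostatic 2 (0.339). The part of RNA from other cells in these differences was not tested.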

How the results depend on the processing

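The larger share of CD8 T cells kept its direction in the alternatives run, with log2 ratios of 2.193 to 3.448 when each library was left out. It missed the threshold with a replicate block (2.829), among T, NK and B cells (1.158) and among T cells (0.065). As given above, it also did without homeostatic 1 (3.012) or homeostatic 2 (2.882). With epithelial cells and cells of no named class left out of the total, it was 2.433 (adjusted p = 0.0322). The 987 genes called between the groups became 387 with DESeq2, 100 thinned to 1000 UMIs, 361 with the intron trend removed and 41 among genes with at most 10 kb of intron, and 464 to 853 without 1 library. The replicate block gave 1293. The labels do not say that equal library numbers mark a pair, and deviations of same-numbered libraries correlated at 0.114, so the block is an alternative only. Thinning removes most UMIs and was followed by a new choice of cells (159, 115, 32 and 25 CD8 T cells), so 2 things change at once. The cause was not tested for any setting. The 123 genes called against CD4 T cells became 265 with no filter, 15 thinned and 64 with a stricter rule, and the 1355 against NK cells became 333 thinned. The interaction test, which called 8 genes, called 18 with no filter, 1 thinned, 20 with a stricter rule, 5 with a stricter cell filter, 1 without called doublets and 4 among genes of short introns, and 5 to 32 without 1 library. Of the 8, these hold 8, 0, 6, 5, 0 and 4, and 7, 1, 4 and 6 without deligated 1, deligated 2, homeostatic 1 and homeostatic 2. Fos, Junb, Tsc22d3, Klf2, Cd69 and Ccl4 were not called when thinned (adjusted p = 0.193, 0.126, 0.126, 0.076, 0.197 and 0.0866), each in the same direction. Nor were Btg2, Fyn, Gzmk, H2-D1, Hsp90aa1, Hspa8, Ikzf3, Ly6a, Nkg7, Psme1, Tox, Il2rg and Id2 (0.0577 to 0.279), Ccl5 against CD4 T cells (0.28), and Eomes and Tbx21 against NK cells (0.135 and 0.0743). The calls of Klf2, Cd69 and Ccl4 were also lost among genes with at most 10 kb of intron (0.0898, 0.0712 and 0.0712). With DESeq2, Fkbp5, Gzmk, H2-D1, Hsp90aa1, Ppp1r15a, Prf1, Psme1, S1pr1, Sgk1, Tnf, Txk, Il2rg, Id2, Id3 and Maf also missed the threshold (adjusted p = 0.0522 to 0.476), as did Fkbp5, Sgk1, Tox, Il2rg, Id2 and Maf under the stricter rule (0.0532 to 0.393) and Hsp90aa1, Sgk1, Tox and Id3 under the stricter cell filter (0.0503 to 0.167). Where the main or the alternative fit called the gene, signs reversed for Gzma without 1 library (-1.392 to 4.419) and under the stricter rule (3.923). They also did for Foxp1 (1.291), Fyn (0.047), Skap1 (0.075) and Tox (0.112) with the trend removed. In the interaction they did for Scgb1b27 thinned (-0.292) and Cd74 without called doublets (-2.577). Signs also turned where neither fit called the gene, among them for Itga1, Gzmb, Tcf7, Eomes and, against CD4 T cells, Cxcr6. With 51 and 48 homeostatic CD8 T cells, depth limits low genes most in that group.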
